A study of Ginkgo biloba with 16 samples.

Results

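The miR166 and miR165 entries were the 24 miRNA entries, of 632 in the sRNA count table of Ginkgo biloba cambium, whose name holds miR166 or miR165 with no further digit. Of these, 22 were miR166 entries and 2 were miR165 entries, and the choice used names only, not counts. The sRNA libraries came from the vascular cambium of female trees of 3 ages. VC20 held the young trees VC20A and VC20B (15 and 20 y old), VC200 held VC200A and VC200B (193 and 211 y), and VC600 held the oldest trees, VC600A and VC600B (538 and 553 y). RNA-seq covered these trees and a tree C in each group (22 y in VC20, 236 y in VC200 and 667 y in VC600). According to the paper, rings were counted for the young group. Ages of old trees too thick for the borer were estimated from trunk diameter and mean ring width. The trees grew unmodified at the Pizhou site. The paper dates its tree-ring cores to late May over more than 1 year, and does not date the cambium samples separately. The sources used here do not give the year of each tree, so age cannot be told apart from year or from differences between individual trees.

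miR166 and miR165 are closely related plant miRNAs that pair with mRNAs of the class III homeodomain-leucine zipper (HD-ZIP III) transcription factors and guide Argonaute proteins to cleave them. In Arabidopsis, HD-ZIP III proteins promote xylem formation and set the upper side of the leaf, and the level of miR165/166 limits where they act. A miRNA is cut from a hairpin precursor as a duplex. For this family the 3p strand is the guide that acts on the targets, and the 5p strand is the passenger, which is usually degraded.

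The table holds names given to ginkgo reads by their match to miRBase, the registry of miRNAs, so each entry carries the species of the matching record and not of the tree. The prefixes here were aly and ath (Arabidopsis lyrata and A. thaliana), cme (melon), cpa (papaya), gma (soybean), gra (Gossypium raimondii), mes (cassava), mtr (Medicago truncatula), osa (rice), ppt (the moss Physcomitrella), ptc (poplar), vvi (grapevine) and zma (maize). Of the 24 entries, 8 were named as 3p, 3 as 5p, and 13 had no strand in the name. Library totals over the whole table were 1184091 to 1842055 reads. A single entry, novel_1, took 24.1 to 30.2% of the reads in the VC20 and VC200 libraries, against 6.55 to 6.88% in the VC600 libraries, so levels are given as CPM, counts relative to library size, after trimmed-mean (TMM) scaling.

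Several entries held the same reads. Entries linked by counts within 1% or 5 reads of each other in every library were treated as 1 read group, which gave 12 read groups of at least 60 reads in all, covering 18 of the 24 entries. The read group of ath-miR166a-3p also held cpa-miR166e and zma-miR166h-3p, which differed from it by at most 0.0647%. The read group of osa-miR166g-3p also held mtr-miR166b, ptc-miR166n and vvi-miR166a, within 0.299%. The 2 miR165 entries, aly-miR165a-3p and ath-miR165a-3p, were identical in all 6 libraries. The entry gma-miR166u was close to the sum of the first pair of read groups: ath-miR166a-3p plus osa-miR166g-3p exceeded it by 0.114 to 0.259% in every library. These 3 levels are therefore not separate measurements, and no sum over the family is given.

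The 6 remaining entries were nearly empty. osa-miR166i-3p had 58 reads over the 6 libraries, ptc-miR166p 24 and osa-miR166k-3p 9. ath-miR166a-5p had 2 reads and gra-miR166d 1 read, all in VC20B, and osa-miR166h-5p had 0 reads. Of the 24 entries, 19 passed the filter on low counts and were tested, and 5 did not.

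gma-miR166u was the most abundant member. It took 5.86 and 5.63% of all reads in VC20A and VC20B, 6.14 and 6.48% in VC200A and VC200B, and 12.9 and 14.0% in VC600A and VC600B. By read count it ranked 4 or 5 among all entries in the 4 VC20 and VC200 libraries and 1 in both VC600 libraries. After TMM scaling it stood at 49556 and 44946 CPM in the VC20 trees, 63979 and 66254 CPM in the VC200 trees, and 138089 and 182058 CPM in the VC600 trees. Both VC600 trees lay above all the others. Called here means a Benjamini-Hochberg adjusted p under 0.05 over all 357 entries tested and a log2 fold change beyond 1 in either direction, in edgeR's quasi-likelihood test. gma-miR166u was called higher in VC600 than in VC20 (log2 fold change 1.76, SE 0.19, adjusted p = 0.000575) and higher in VC600 than in VC200 (1.30, SE 0.19, adjusted p = 0.00384). Between VC200 and VC20 its log2 fold change was 0.46 (SE 0.19, adjusted p = 0.231), which was not called although the trees did not overlap.

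The ath-miR166a-3p read group, a 3p guide, gave the larger part of those reads. It measured 35817 and 33390 CPM in the VC20 trees, 45424 and 49058 CPM in the VC200 trees, and 118479 and 158497 CPM in the VC600 trees. By group it averaged 138488 ± 28297 CPM in VC600, against 34603 ± 1716 CPM in VC20 (SD, n = 2 trees each). ath-miR166a-3p was called higher in VC600 than in VC20 (log2 fold change 2.0, SE 0.20, edgeR adjusted p = 0.000456) and than in VC200 (1.55, SE 0.20, adjusted p = 0.00311). In VC200 against VC20 the log2 fold change was 0.45 (SE 0.19, adjusted p = 0.255). The calls of ath-miR166a-3p and gma-miR166u in both VC600 comparisons held under every alternative run, including each library left out in turn.

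**Figure D1:**
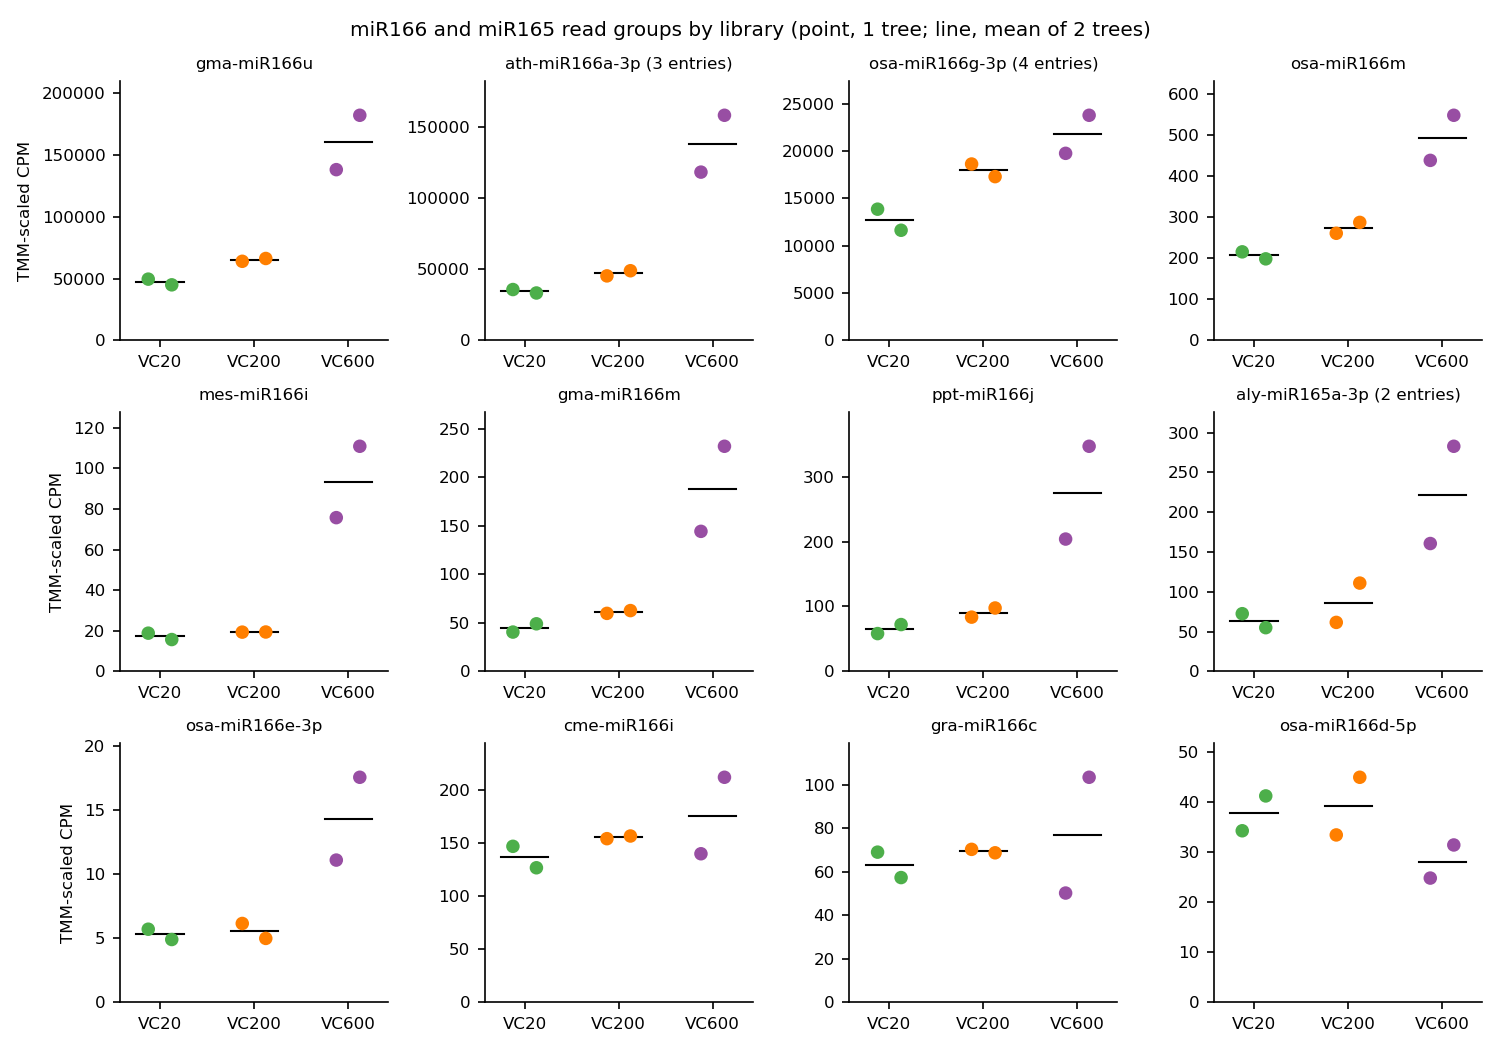
TMM-scaled counts (CPM, linear axes from 0) of the 12 read groups with at least 60 reads; each point is 1 tree and each line the mean of 2 trees of VC20, VC200 or VC600. In the first 9 panels both VC600 trees lie above every VC20 tree, whereas in cme-miR166i and gra-miR166c they straddle or lie among the others, and osa-miR166d-5p is lowest in VC600.

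The osa-miR166g-3p read group, also a 3p guide, differed less between ages. It measured 13867 and 11640 CPM in the VC20 trees, 18640 and 17307 CPM in the VC200 trees, and 19768 and 23790 CPM in the VC600 trees. The VC600 trees were the highest, but the step above VC200 was small. osa-miR166g-3p had a log2 fold change of 0.77 in VC600 against VC20 (SE 0.23, edgeR adjusted p = 0.0258), which passed the p threshold but not the fold threshold. DESeq2 put the same fold change at 1.01 (adjusted p = 0.00217) and called it. In VC600 against VC200 it was 0.28 (SE 0.23, adjusted p = 0.343), and in VC200 against VC20 it was 0.49 (SE 0.23, adjusted p = 0.277).

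The balance of the 2 large read groups was then compared within each library, where scaling between libraries plays no role. The number of ath-miR166a-3p reads per osa-miR166g-3p read was 2.58 in VC20A and 2.87 in VC20B, 2.44 in VC200A and 2.83 in VC200B, and 5.99 in VC600A and 6.66 in VC600B. As a share of both read groups, ath-miR166a-3p made up 72.1% (exact Clopper-Pearson 95% interval 71.8 to 72.4) and 74.2% (73.9 to 74.4) in VC20, 70.9% (70.6 to 71.2) and 73.9% (73.7 to 74.2) in VC200, and 85.7% (85.6 to 85.8) and 86.9% (86.8 to 87.1) in VC600. These intervals treat reads as independent and do not cover differences between trees. PCR reads are not independent molecules, so the intervals can be too narrow even for counting error. The ratio was 2.32-fold higher in VC600 than in VC20 (log2 difference 1.22, exact permutation p = 0.333, adjusted p = 0.40 over 6 such tests). Against VC200 it was 2.40-fold higher in VC600 (1.27, exact permutation p = 0.333, adjusted p = 0.40). With 2 trees a group, 0.333 is the smallest p this two-sided test can give. VC200 and VC20 overlapped (log2 difference -0.05, exact permutation p = 0.667).

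**Figure D2:**
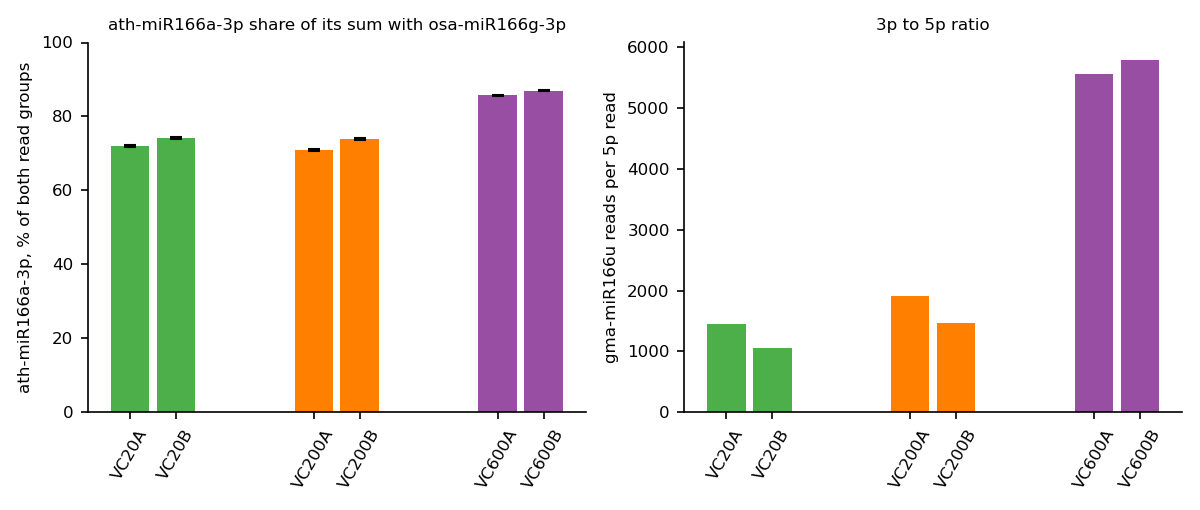
Left, share of the ath-miR166a-3p read group (%) in its sum with the osa-miR166g-3p read group, per library, with exact 95% intervals; right, reads of gma-miR166u per read of the entries named 5p. Bars start at 0, and the VC600 libraries are the highest in both panels, at 85.7 and 86.9% on the left and 5562 and 5791 reads on the right.

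Of the less abundant miR166 entries, 4 were called higher in VC600 than in VC20. mes-miR166i had 33 and 32 reads in the VC20 trees, 22 and 35 in the VC200 trees, and 116 and 120 in the VC600 trees, or 93.4 ± 24.9 CPM in VC600 against 17.3 ± 2.22 CPM in VC20 (SD, n = 2 each). Its log2 fold change was 2.43 against VC20 (SE 0.44, edgeR adjusted p = 0.00508) and 2.26 against VC200 (SE 0.44, adjusted p = 0.0106). After scaling, the VC200 trees (19.4 CPM each) lay just above the VC20 trees (18.8 and 15.7 CPM). Both VC600 trees lay above all of them. The call of mes-miR166i against VC200 was lost without VC200A (adjusted p = 0.0618) or VC200B (adjusted p = 0.0524).

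gma-miR166m had 71 and 100 reads in the VC20 trees, 68 and 113 in the VC200 trees, and 221 and 251 in the VC600 trees. ppt-miR166j had 102 and 147 reads in the VC20 trees, 95 and 176 in the VC200 trees, and 312 and 375 in the VC600 trees. Both VC600 trees were the highest for each entry. The log2 fold change of VC600 against VC20 was 2.07 for gma-miR166m (SE 0.44, edgeR adjusted p = 0.00799) and 2.07 for ppt-miR166j (SE 0.45, adjusted p = 0.00882). Against VC200, gma-miR166m stood at 1.62 (SE 0.43, adjusted p = 0.0230) and ppt-miR166j at 1.60 (SE 0.44, adjusted p = 0.0245). Without VC20A the calls against VC20 were lost (adjusted p = 0.0574 for gma-miR166m and 0.0643 for ppt-miR166j). The calls against VC200 were lost without VC200A, VC200B or VC600B, with adjusted p = 0.117, 0.0931 and 0.0831 for gma-miR166m in that order of libraries and 0.0894 to 0.126 for ppt-miR166j.

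osa-miR166m had 377 and 404 reads in the VC20 trees, 296 and 517 in the VC200 trees, and 670 and 592 in the VC600 trees. After scaling the VC600 trees were the highest, at 493 ± 77.5 CPM against 207 ± 12.1 CPM in VC20 (SD, n = 2 each). osa-miR166m was called in VC600 against VC20 (log2 fold change 1.25, SE 0.39, edgeR adjusted p = 0.0308), but not against VC200 (0.85, SE 0.38, adjusted p = 0.108). This was the least stable call: it was lost without VC20A (adjusted p = 0.110), VC20B (0.108), VC200A (0.0549), VC200B (0.0538) or VC600B (0.0884), with library totals in place of TMM (log2 fold change 0.72, adjusted p = 0.152), and with only the 2 groups compared in the fit (adjusted p = 0.0609). DESeq2 called it against VC200 as well (1.02, adjusted p = 0.00576).

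Reads named miR165 were scarce beside those named miR166. The read sequences were not available here, so whether these reads are distinct from miR166 reads was not tested. The aly-miR165a-3p reads, the same as those of ath-miR165a-3p, numbered 127 and 112 in the VC20 trees, 70 and 200 in the VC200 trees, and 246 and 306 in the VC600 trees. Per 1000 reads of gma-miR166u this was 1.46 and 1.22 reads in the VC20 trees, 0.963 and 1.68 reads in the VC200 trees, and 1.16 and 1.55 reads in the VC600 trees. The VC200 trees spanned the widest range, and the 3 ages overlapped in this ratio. In level, aly-miR165a-3p was called higher in VC600 than in VC20 (log2 fold change 1.80, SE 0.50, edgeR adjusted p = 0.0215) but not than in VC200 (1.36, SE 0.50, adjusted p = 0.0598). The call against VC20 was lost without VC20A (adjusted p = 0.0788), VC20B (0.108) or VC600B (0.0866) and with library totals in place of TMM (0.0605), whereas DESeq2 called it against VC200 too (1.52, adjusted p = 0.0104).

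The entries osa-miR166e-3p, cme-miR166i and gra-miR166c were not called in any comparison. osa-miR166e-3p had 10 and 10 reads in the VC20 trees, 7 and 9 in the VC200 trees, and 17 and 19 in the VC600 trees. Both VC600 trees lay above the others, with a log2 fold change of 1.41 against VC20 (SE 0.52, edgeR adjusted p = 0.0543). It was called with RLE scaling (1.64, adjusted p = 0.0321) but not by DESeq2 (1.65, adjusted p = 0.0739). cme-miR166i had 257 and 258 reads in the VC20 trees, 175 and 282 in the VC200 trees, and 214 and 229 in the VC600 trees. gra-miR166c had 121 and 117 reads in the VC20 trees, 80 and 124 in the VC200 trees, and 77 and 112 in the VC600 trees. For cme-miR166i and gra-miR166c the VC600 trees lay on both sides of the VC20 trees or overlapped them after scaling. In VC600 against VC20 the log2 fold change was 0.36 for cme-miR166i (SE 0.41, adjusted p = 0.498) and 0.28 for gra-miR166c (SE 0.47, adjusted p = 0.647), and with library totals in place of TMM both turned negative, to -0.18 and -0.28.

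Strand was taken from the names, and whether gra-miR166c (631 reads), with no strand in its name, holds 5p reads was not tested. Among the entries named 5p, the passenger strand was represented by osa-miR166d-5p. It had 60 and 84 reads in the VC20 trees, 38 and 81 in the VC200 trees, and 38 and 34 in the VC600 trees. After scaling it averaged 28.1 ± 4.67 CPM in VC600, against 37.8 ± 4.92 CPM in VC20 (SD, n = 2 each), and the VC600 trees were the lowest of the 6. The log2 fold change was -0.43 in VC600 against VC20 (SE 0.43, edgeR adjusted p = 0.445) and -0.49 against VC200 (SE 0.43, adjusted p = 0.382), neither of them called. osa-miR166d-5p was the single tested member whose VC600 trees lay below both the VC20 and the VC200 trees.

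The strands were therefore also compared within each library, as reads of gma-miR166u per read of the 3 entries named 5p. This ratio was 1446 in VC20A and 1065 in VC20B, 1913 in VC200A and 1474 in VC200B, and 5562 in VC600A and 5791 in VC600B. Both VC600 libraries stood above the other 4, and both VC200 libraries stood above both VC20 libraries. The ratio was 4.57-fold higher in VC600 than in VC20 (log2 difference 2.19, exact permutation p = 0.333, adjusted p = 0.40) and 3.38-fold higher than in VC200 (1.76, exact permutation p = 0.333, adjusted p = 0.40). It rested on 34 to 86 reads of the entries named 5p per library. It leaves out any 5p reads held by entries with no strand in the name. In VC200 against VC20 it was 1.35-fold higher (log2 difference 0.44, exact permutation p = 0.333, adjusted p = 0.40).

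Over the family, 10 of the 19 tested entries were called higher in VC600 than in VC20 and 0 lower, in a comparison where 46.5% of the 357 tested entries were called (19.0% of the 357 higher and 27.5% lower). The share called higher was thus larger among these members than over the table, although several of them hold the same reads. Counted as read groups, 7 of 13 were called higher, beside 19.1% of the entries left after the same collapsing. Both gma-miR166u and ath-miR166a-3p, which share most of their reads, are among the 7, so these are not all separate measurements. The median log2 fold change was 1.41 over the 19 members tested and -0.26 over all entries tested. Without VC20A the number called was 5, and without VC20B or VC600B it was 7. At an unadjusted p under 0.05, 15 members passed, beside 57.4% of all entries. The trees of the groups did not overlap for 16 members higher in VC600 and 1 lower, beside 31.9% of entries higher and 42.6% lower. In VC600 against VC200, 7 of the 19 were called higher and 0 lower, where 40.3% of entries were called and 16.2% called higher, and this count was 4 without VC200A or VC200B and 5 without VC600B. As read groups, 5 of 13 were called higher, beside 16.4%, again with both gma-miR166u and ath-miR166a-3p among them. At an unadjusted p under 0.05, 10 members passed, beside 51.3% of entries, and trees did not overlap for 15 members higher in VC600 and 1 lower, beside 33.6% and 41.7% of entries. The median was 1.30 over the members tested and -0.27 over all entries tested.

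In VC200 against VC20, edgeR called 0 of the 19 members, where 8.12% of entries were called (2.80% higher, 5.32% lower), and DESeq2 also called 0. At an unadjusted p under 0.05 there was 1 member, gma-miR166u, where 18.8% of entries passed. The trees of the groups did not overlap for 14 members, all higher in VC200, where 29.1% of entries were higher without overlap and 28.6% lower. Several of these 14 hold the same reads. With library totals in place of TMM, gma-miR166u, ath-miR166a-3p and osa-miR166g-3p still did not overlap, whereas osa-miR166m, gma-miR166m, ppt-miR166j and osa-miR166i-3p overlapped. On that scale mes-miR166i was 22.3 and 19.7 CPM in the VC20 trees and 18.6 and 19.0 CPM in the VC200 trees, and cme-miR166i also lay lower in VC200. The median log2 fold change was 0.45 over the members tested and -0.05 over all entries tested. Of the 12 read groups of at least 60 reads, 7 had TMM-scaled levels in both VC200 trees between those of the other ages. These were gma-miR166u, ath-miR166a-3p, osa-miR166g-3p, osa-miR166m, gma-miR166m, ppt-miR166j and mes-miR166i, and none passed the test against VC20. They are not all separate measurements, as gma-miR166u is close to the sum of ath-miR166a-3p and osa-miR166g-3p. The share of all entries with both VC200 trees between the other ages was not computed, so the count has no background. For mes-miR166i the margin was small, at 19.4 CPM in both VC200 trees against 18.8 CPM in VC20A.

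**Figure D3:**
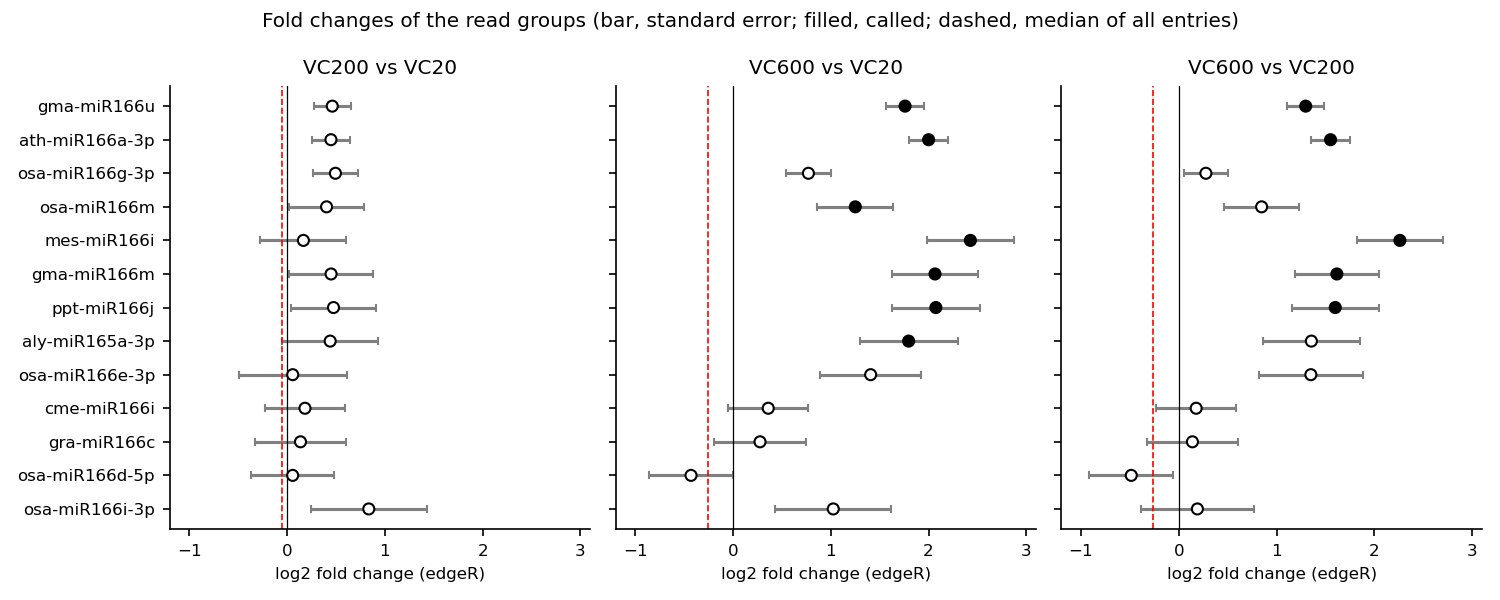
Log2 fold change (edgeR) of 13 read groups in VC200 against VC20, VC600 against VC20 and VC600 against VC200, with SE bars; filled points were called, and the dashed line is the median of all tested entries. Filled points appear in the VC600 comparisons alone, 7 against VC20 and 5 against VC200, all to the right of 0.

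The choice of scaling moved all entries together. In VC600 against VC20 the median entry was at -0.26 with TMM, -0.76 with library totals and -0.02 with RLE. Relative to that median, ath-miR166a-3p stood at 2.26, 2.23 and 2.25 under the 3 scalings, osa-miR166g-3p at 1.03, 1.01 and 1.03, and osa-miR166d-5p at -0.17, -0.20 and -0.18. Among all called entries, 41.0% were higher with TMM, 24.4% with library totals and 52.7% with DESeq2. Taking the scaling from the table without novel_1, an alternative added after its counts were seen, gave ath-miR166a-3p a log2 fold change of 2.04 (edgeR adjusted p = 0.000441), and taking it without the miR166 and miR165 entries gave 1.95 (adjusted p = 0.000180).

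To see how the members differed among themselves, each read group was set against gma-miR166u in the same library. ath-miR166a-3p made 723 and 743 reads per 1000 reads of gma-miR166u in the VC20 trees, 710 and 740 in the VC200 trees, and 858 and 871 in the VC600 trees. cme-miR166i went the other way, at 2.96 and 2.82 in the VC20 trees, 2.41 and 2.36 in the VC200 trees, and 1.01 and 1.16 in the VC600 trees. gra-miR166c gave 1.39 and 1.28 in the VC20 trees, 1.10 and 1.04 in the VC200 trees, and 0.364 and 0.569 in the VC600 trees, and osa-miR166d-5p gave 0.692 and 0.917, 0.523 and 0.678, and 0.180 and 0.173 at the same ages. osa-miR166g-3p gave 280 and 259 in the VC20 trees, 291 and 261 in the VC200 trees, and 143 and 131 in the VC600 trees, and osa-miR166m 3.17 and 3.01 in the VC600 trees, against 4.07 to 4.41 in the other 4. In these 5 read groups the VC600 libraries were the lowest. The share of all entries that would be lowest in this ratio was not computed. In VC600 against VC20, gma-miR166u itself had a log2 fold change of 1.76, and the median of all entries was -0.26. Most entries tested were therefore lower relative to gma-miR166u in VC600. mes-miR166i was highest in VC600, at 0.549 and 0.609 reads per 1000, against 0.380 and 0.349 in VC20. In VC600, gma-miR166m (1.05 and 1.27), ppt-miR166j (1.48 and 1.90) and aly-miR165a-3p (1.16 and 1.55) overlapped VC20. For osa-miR166e-3p the VC600 trees (0.0804 and 0.0965) lay below VC20 and overlapped VC200. Since gma-miR166u is close to the sum of ath-miR166a-3p and osa-miR166g-3p, the opposite directions of this pair repeat the balance given above and are not separate results. Apart from this pair, mes-miR166i, with 116 and 120 reads in the VC600 trees, was higher relative to gma-miR166u in VC600. cme-miR166i, gra-miR166c, osa-miR166d-5p and osa-miR166m were lower. The family thus did not move as a block, and these within-library ratios were not tested one by one.

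**Figure D4:**
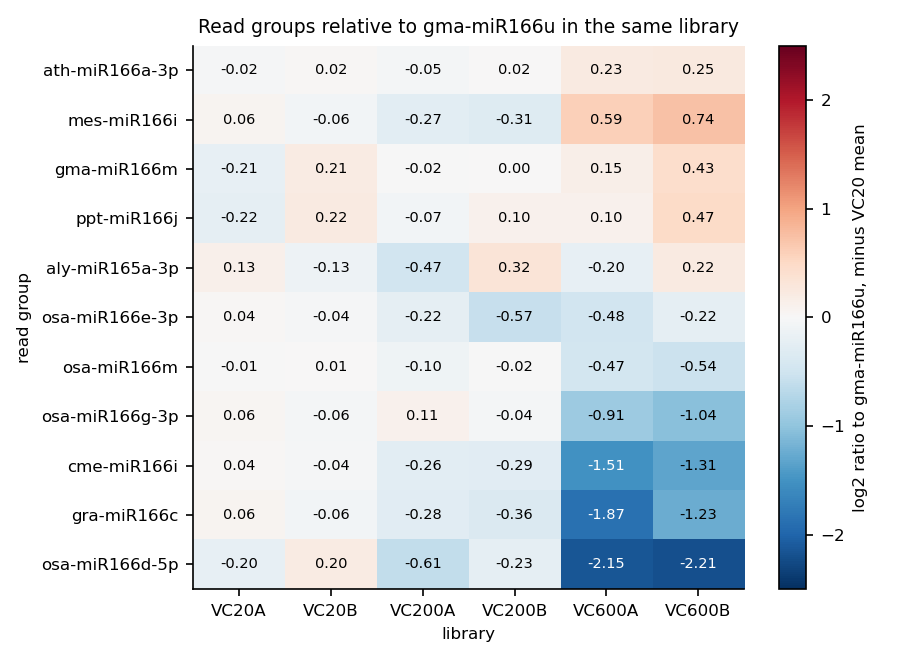
Each cell is the log2 ratio of a read group (rows) to gma-miR166u in 1 library (columns), minus the mean of the VC20 libraries. The VC600 columns run between 0.59 and 0.74 for mes-miR166i at the upper end and between -2.15 and -2.21 for osa-miR166d-5p at the lower end.

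The deposited list of predicted targets named 63 of its 3078 genes for at least 1 member. The 5 HD-ZIP III genes named by the study were each listed for the same 16 members. Of the 24 entries, 8 listed none of the 5, and those 8 held 1074 reads in all, so nearly all reads of the family belonged to entries paired with HD-ZIP III genes. The 8 were gra-miR166c, gra-miR166d, osa-miR166d-5p, osa-miR166e-3p, osa-miR166h-5p, osa-miR166k-3p, ath-miR166a-5p and ptc-miR166p. Beyond HD-ZIP III, Gb_05412 and Gb_28988 were each listed for 9 members and Gb_30715 for 6. At the other end, 47 genes were listed for 1 member only, and 23 of these for gra-miR166d, an entry with 1 read in all libraries. Entries holding the same reads did not list the same genes: ath-miR166a-3p had 6 predicted genes, zma-miR166h-3p 10 and cpa-miR166e 12, with 5 or 6 shared by any pair.

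The HD-ZIP III mRNAs were measured by RNA-seq in 9 trees, in FPKM, fragments scaled to gene length and library size. The study names Gb_02083, Gb_18240 and Gb_22761 HB-8, after an Arabidopsis gene of procambium and early xylem, Gb_10259 PHV and Gb_18245 PHB, after Arabidopsis genes of organ polarity and vascular patterning. Gb_02083 lies on scaffold10919 (519363 to 525014, plus strand), Gb_18240 and Gb_18245 on scaffold2793 (2653073 to 2774342 and 4665461 to 4672112, plus strand), Gb_22761 on scaffold3748 (651971 to 657843, minus strand) and Gb_10259 on scaffold17464 (40815 to 260863, plus strand) of the G. biloba genome assembly used by the authors. Lower values in bulk cambium cannot tell fewer cells of a type apart from less RNA per cell.

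Gb_18240 (HB-8) had 16.9, 20.6 and 20.2 FPKM in the VC20 trees A, B and C, 10.9, 15.9 and 8.59 FPKM in the VC200 trees, and 15.6, 17.8 and 20.6 FPKM in the VC600 trees. The VC200 trees were lower than every VC20 tree, and the VC600 trees overlapped VC20. The share of all genes with every VC200 tree below every VC20 tree was not computed. In limma on log2(FPKM + 1) the log2 fold change of Gb_18240 was -0.70 in VC200 against VC20 (SE 0.23, adjusted p = 0.149) and -0.09 in VC600 against VC20 (SE 0.23, adjusted p = 0.963). Gb_18245 (PHB) had 41.0, 52.9 and 31.0 FPKM in the VC20 trees, 18.7, 44.6 and 9.98 FPKM in the VC200 trees, and 39.4, 32.9 and 47.9 FPKM in the VC600 trees. Gb_02083 (HB-8) averaged 41.6 ± 17.2, 24.1 ± 20.4 and 42.9 ± 20.4 FPKM in VC20, VC200 and VC600 (SD, n = 3 each). In that order of ages Gb_22761 (HB-8) averaged 26.0 ± 13.7, 13.6 ± 14.0 and 23.5 ± 10.6 FPKM, and Gb_10259 (PHV) 4.34 ± 1.60, 3.05 ± 2.42 and 3.61 ± 2.06 FPKM. The 3 ages overlapped in these last 4 genes.

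No HD-ZIP III gene among the 5 passed limma's adjusted p threshold of 0.05 at a log2 fold change of 1 or more in any comparison. Of 21924 genes tested, 0.990% were called in VC200 against VC20, 0.00912% in VC600 against VC20 and 0.00456% in VC600 against VC200. The paper, which used DESeq2, reports many more changed genes, both between young and old trees and between VC200 and VC600. With so few genes called by limma, the lack of a call says little about these 5 genes. At an unadjusted p under 0.05, Gb_18240 alone of the 5 passed, in VC200 against VC20 and in VC600 against VC200, and 0 of the 5 passed in VC600 against VC20. Over all genes tested, 20.1% passed this limit in VC200 against VC20, 10.2% in VC600 against VC200 and 6.78% in VC600 against VC20, so 1 gene of 5 was near the share of the whole table. The 5 log2 fold changes ran from -1.28 to -0.55 in VC200 against VC20 (median -0.96, against -0.12 over all genes tested), from -0.30 to -0.01 in VC600 against VC20 (median -0.07, against -0.02), and from 0.25 to 1.21 in VC600 against VC200 (median 0.92, against 0.11). VC200C, a tree with no sRNA library, was the lowest of the 9 in all 5 genes. Without it the VC200 against VC20 values lay between -0.51 and -0.06. The cambium gene WOX4, which keeps cambial cells dividing in Arabidopsis, was lowest in VC200C too. Its copies Gb_12565 and Gb_05339 stood at 0 and 0.450 FPKM there and at 1.01 to 5.98 and 7.29 to 37.2 FPKM in the other 8 trees, and the part of this in the HD-ZIP III values was not tested.

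**Figure D5:**
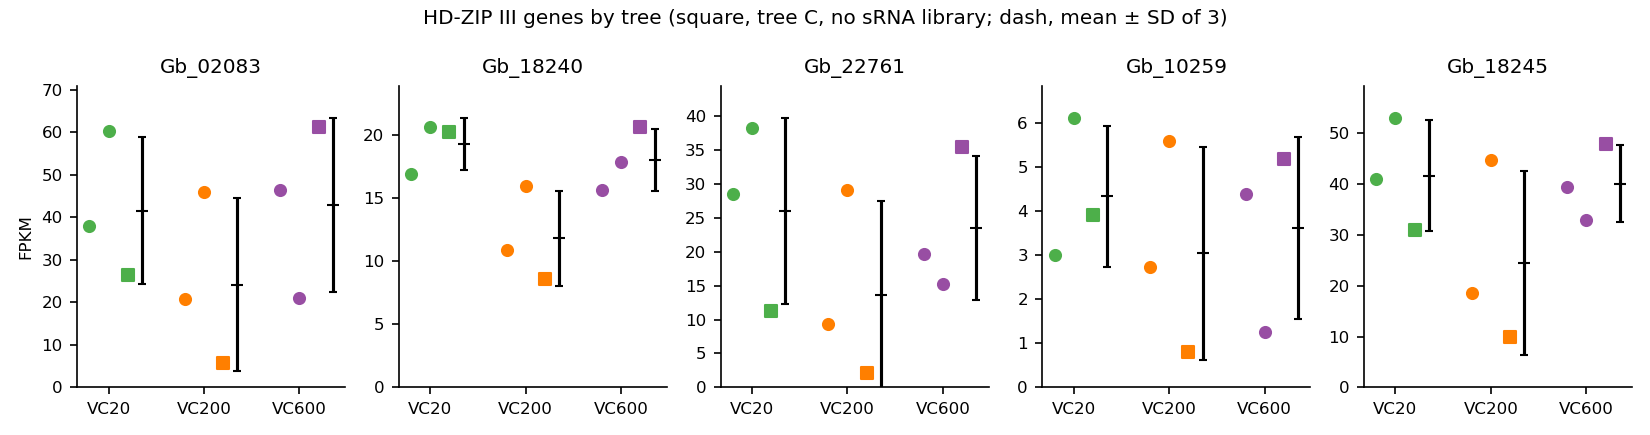
FPKM (linear axes from 0) of the 5 HD-ZIP III genes in each tree; circles are trees A and B, squares tree C, which has no sRNA library, and dashes with bars are the mean ± SD of 3 trees (the bar of Gb_22761 in VC200 is cut at 0). The square of VC200, tree VC200C, is the lowest point in every panel, at 0.795 to 9.98 FPKM, and the VC20 and VC600 trees overlap in all 5.

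In the trees with both kinds of library, ath-miR166a-3p and its predicted targets can be set side by side. From degradome sequencing, not analysed here, the paper reports cleavage by miR166 members in genes that include Gb_02083, Gb_10259 and Gb_18245. It also describes the miR166 targets as down-regulated in old trees, by which it means VC200 and VC600. ath-miR166a-3p was 118479 and 158497 CPM in VC600A and VC600B against 35817 and 33390 CPM in VC20A and VC20B. Gb_18240 was 15.6 and 17.8 FPKM in VC600A and VC600B against 16.9 and 20.6 FPKM in VC20A and VC20B, and the ages overlapped, as they did for Gb_02083 and Gb_10259. Gb_22761 was 19.7 and 15.3 FPKM in VC600A and VC600B against 28.5 and 38.3 FPKM in VC20A and VC20B. Gb_18245 was 39.4 and 32.9 FPKM in VC600A and VC600B against 41.0 and 52.9 FPKM in VC20A and VC20B. In these 2 genes both VC600 trees lay below both VC20 trees, as in 29.0% of all genes tested. With trees A and B alone, the limma log2 fold change in VC600 against VC20 was -0.15 for Gb_18240 (adjusted p = 0.781) and ran from -0.89 to -0.36 in the other 4 genes, none of them called. The largest of these, -0.89, was that of Gb_22761 (adjusted p = 0.457). In VC200 against VC20 the same fit gave -0.94 to -0.10 over the 5 HD-ZIP III genes, none of them called. There the log2 fold change of ath-miR166a-3p was 0.45 and was not called either.

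Outside the family, the entries whose level followed ath-miR166a-3p most closely were sought among 257 entries of at least 10 CPM on average, by Pearson's r of log2 CPM over the same 6 libraries, which share depth and scaling. The closest were novel_17 (r = 0.995), novel_16 (r = 0.992) and ath-miR164a (r = 0.983), the last a miRNA that targets NAC transcription factors in Arabidopsis. novel_17 had 4240 and 4174 reads in the VC20 trees, 3966 and 7325 in the VC200 trees, and 18088 and 16201 in the VC600 trees. ath-miR164a had 29 and 24 reads in the VC20 trees, 27 and 60 in the VC200 trees, and 114 and 135 in the VC600 trees. All 3 were highest in the VC600 trees. These values describe 6 libraries and carry no test.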

How the data were processed

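The authors deposited raw read counts per miRNA entry for 6 sRNA libraries (18 to 30 nt reads, miRBase 20.0, modified miRDeep2), where a read can count for several entries. They also deposited FPKM per gene for 9 RNA-seq libraries and a list of predicted targets (psRobot and TargetFinder) without scores. For RNA-seq alignment the paper names HISAT, and the submitters' processing notes name TopHat2 2.0.12 and Cufflinks 2.1.1. The degradome library was not analysed here, nor were miRNA pathway genes, since the gene table pairs no names with its IDs.

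The members and lists were chosen with earlier results of these data known. Counts were fitted with edgeR 4.0.16 in 1 fit of 6 libraries (filterByExpr left 357 entries, TMM scaling, quasi-likelihood test), and FPKM with limma 3.58.1 on log2(FPKM + 1) for genes that reached 1 FPKM in 3 libraries or more. SE is the fold change divided by the root of F. Named entries were all members of at least 60 reads, 1 per read group. DESeq2 1.42.0, other scalings and filters, collapsed entries, a replicate block and each library left out were alternatives. The scripts were tested on simulated data. Labels name separate trees as replicates.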

Additional observations from a re-analysis of the deposited data

How the results depend on the processing

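Of the miRNA fold changes, 207 of 234 kept their direction and their call with a library left out, and 366 of 388 under the other settings. With library totals in place of TMM, VC200 against VC20 turned to -0.14 for cme-miR166i, -0.19 for gra-miR166c, -0.16 for mes-miR166i, -0.27 for osa-miR166d-5p and -0.27 for osa-miR166e-3p. VC600 against VC20 turned to -0.18 for cme-miR166i and -0.28 for gra-miR166c, and VC600 against VC200 to -0.038 for cme-miR166i, -0.093 for gra-miR166c and -0.0074 for osa-miR166i-3p. None of these had been called.

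With a library left out, the log2 fold change in VC200 against VC20 ran from -0.011 to 0.83 for aly-miR165a-3p, -0.14 to 0.27 for osa-miR166d-5p and -0.060 to 0.25 for osa-miR166e-3p. It ran from -0.30 to 0.74 for gra-miR166c in VC600 against VC20, and in VC600 against VC200 from -0.15 to 0.45 for cme-miR166i, -0.46 to 0.57 for gra-miR166c and -0.24 to 0.88 for osa-miR166i-3p. The log2 ratio of ath-miR166a-3p to osa-miR166g-3p ran from -0.16 to 0.058 in VC200 against VC20 and from 1.14 to 1.29 in VC600 against VC20. The number of members called ran from 5 to 10 in VC600 against VC20 and from 4 to 7 in VC600 against VC200. The tree left alone in its group is assumed to vary like the others. With ath-miR166a-3p as the 3p strand, the log2 3p to 5p ratio was 2.43 higher in VC600 than in VC20 and 2.01 higher than in VC200. The cause of these changes was not tested.

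Of the HD-ZIP III genes in VC600 against VC20, quantile normalization moved Gb_02083 to 0.0012, and with a library left out the values ran from -0.32 to 0.43 for Gb_02083, -0.57 to 0.15 for Gb_10259, -0.23 to 0.15 for Gb_18245 and -0.56 to 0.28 for Gb_22761. In VC600 against VC200, Gb_10259 was -0.51 with trees A and B only and ran from -0.24 to 0.70 with a library left out.

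The tree letters did not pair the trees: deviations from the group means correlated at r = -0.02, -0.07 and -0.11 over 357 entries. The replicate block left the members called at 10 in VC600 against VC20, 7 in VC600 against VC200 and 0 in VC200 against VC20, and 0 HD-ZIP III genes. Over all entries, the calls in VC200 against VC20 numbered 29, against 10 with the block, 17 with only 2 groups in the fit, 19 with nearly equal entries collapsed and 54 with no filter, and 5 to 22 with a library left out. In VC600 against VC20 they numbered 166 (90 to 153 with a library left out) and in VC600 against VC200 144 (48 to 125). The miRNA pathway genes planned as a list were not run. What depth limits was not tested.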
